A study of Mus musculus with 5 samples.

Results

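The genes described here are 10 genes of iron handling and haem breakdown, measured in mouse bone marrow-derived macrophages: Slc40a1, Hmox1, Blvrb, Fth1, Ftl1, Ncoa4, Tfrc, Slc11a1, Slc11a2 and Ireb2. They were chosen by name for what they are known to do, with earlier results of these data known. Each of the 10 was found among the 20583 gene symbols of the deposited count table. A gene with several transcript rows is represented by the row with the highest mean count. All 10 passed the low-count filter of the test.

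Macrophages were grown from bone marrow of C57BL/6 background mice aged 7 to 8 weeks, in the presence of the growth factor M-CSF at 25 ng/ml for 7 days, and every library shares that treatment. The 2 genotypes are wild type (3 libraries, numbered 1, 2 and 3) and NICcA (2 libraries, numbered 2 and 3). The labels leave the name NICcA unexplained; in general use it refers to forced expression of the intracellular part of a Notch receptor, and the sources used here give no promoter or Cre line that would drive it. The comparison asks which transcripts differ between macrophages of these genotypes.

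Total counts ranged from 57442309 to 76562905 per library. Of the macrophage markers Csf1r, Emr1 (now Adgre1), Cd68, Itgam, Mertk and Lyz2, all 6 were detected in every library. Their summed level was 13577 to 19978 CPM (read counts brought to a common library total with edgeR's TMM factors) in wild type and 11497 and 12254 CPM in NICcA. Most of each sum was Lyz2, at 11521 to 17517 CPM in wild type and 9302 and 10411 CPM in NICcA. Lyz2, Cd68 and Mertk were lower in NICcA without overlap, while the groups overlapped for Csf1r, Emr1 and Itgam. Over all genes tested, 18.5% were lower in NICcA without overlap. Nothing in the labels tells whether libraries of a genotype are separate animals or cultures; p-values therefore measure only the spread between these samples, which may be technical. In RNA from whole cultures, fewer cells of a type and less RNA per cell cannot be told apart.

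Macrophages take up old red cells, break haem down with haem oxygenase and biliverdin reductase, and either store the freed iron in ferritin or send it out through ferroportin. Ferritin is a shell of heavy and light chains, and its iron is recovered when NCOA4 carries it to the lysosome for degradation. The iron regulatory proteins, one of them encoded by Ireb2, bind RNA hairpins called iron-responsive elements when iron is scarce: in a 5′ untranslated region this blocks translation, and in the 3′ untranslated region of the transferrin receptor mRNA it slows decay.

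The hairpins are shown first because they divide these genes by where the iron sensor acts on the RNA. A search of the untranslated regions of the GENCODE M21 mouse transcripts (build GRCm38) that match the RefSeq rows of these genes, for the letters CNNNNNCAGTGN with the last base not G and 5 bases on each side of the loop that all pair (G with T allowed), found 1 site in the 5′ untranslated region of each of 3 genes and 4 sites in the 3′ untranslated region of Tfrc. Allowing 1 unpaired base on the 3′ side of the stem added 1 site, in the longer Slc11a2 transcript row. Each sequence below is given 5′ to 3′ as 30 bases in DNA letters, with the loop in capitals.
Slc40a1, 5′ untranslated region, chr1:45925464-45925493, minus strand: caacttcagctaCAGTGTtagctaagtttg
Fth1, 5′ untranslated region, chr19:9982732-9982761, plus strand: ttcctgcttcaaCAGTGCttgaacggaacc
Ftl1, 5′ untranslated region, chr7:45459778-45459807, minus strand: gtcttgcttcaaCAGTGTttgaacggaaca
Tfrc, 3′ untranslated region, chr16:32631219-32631248, plus strand: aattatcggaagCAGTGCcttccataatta
Tfrc, 3′ untranslated region, chr16:32631598-32631627, plus strand: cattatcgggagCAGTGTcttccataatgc
Tfrc, 3′ untranslated region, chr16:32631663-32631692, plus strand: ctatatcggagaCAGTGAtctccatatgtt
Tfrc, 3′ untranslated region, chr16:32631710-32631739, plus strand: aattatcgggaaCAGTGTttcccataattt
Slc11a2 (longer row), 3′ untranslated region, chr15:100395152-100395181, minus strand: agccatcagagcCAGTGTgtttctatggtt

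The fully paired form occurred in the 5′ untranslated region of 0.11% of 20916 genes and in the 3′ untranslated region of 0.475% of 21039 genes, and the form with 1 unpaired base in 0.167% and 0.77%. In the untranslated regions of Hmox1, Blvrb, Ncoa4, Slc11a1 and Ireb2 and of the shorter Slc11a2 row, neither form of this paired pattern was found. A match is a description of sequence. The libraries measure RNA level, so control of translation through the hairpins of Slc40a1, Fth1 and Ftl1 is outside what they can show.

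Levels per transcript length spanned 3 tiers, seen in the plot of RPKM by gene (read counts divided by transcript length and library size, as deposited by the authors). Ferritin was the top tier: Ftl1 averaged 7010 ± 338 RPKM and Fth1 4059 ± 617 RPKM in wild type (mean ± SD; n = 3 for wild type, and n = 2 wherever NICcA is given), ranks 3 and 4 among all gene symbols. Ncoa4 (111 ± 17.8 RPKM), Hmox1 (95.9 ± 11.4 RPKM) and Blvrb (64.6 ± 11.5 RPKM) formed the second tier. The transporters, Tfrc and Ireb2 lay far below, from 13.8 ± 7.52 RPKM for Slc11a1 down to 4.04 ± 0.600 RPKM for Ireb2. In that order, the wild type ranges of Ncoa4 and Hmox1 overlapped, as did those of each neighbouring pair from Slc11a1 through Slc40a1, Slc11a2 and Tfrc to Ireb2, while the other neighbours were separate.

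**Figure D1:**
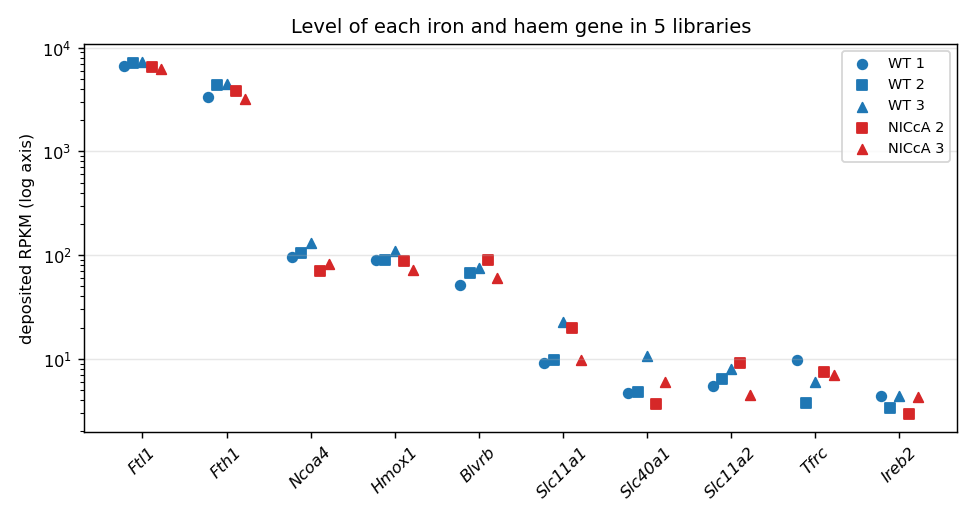
Deposited RPKM (log axis) of each of the 10 genes in the 3 wild type libraries (blue) and the 2 NICcA libraries (red), ordered by the wild type mean. Ftl1 and Fth1 stand above 3000 RPKM in all 5 libraries, and the 5 lowest genes lie at or below 22.4 RPKM.

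Ferritin turnover and storage held the largest fold change among the 10 genes. Ncoa4, the receptor that delivers ferritin to lysosomes, was at 411, 467 and 580.1 CPM across wild type replicates 1, 2 and 3, against 285 and 330.2 CPM with NICcA (replicates 2 and 3). Both NICcA libraries lay below every wild type library. The means were 486 ± 86.3 and 308 ± 32.0 CPM, a log2 fold change of -0.66 (SE 0.18), or 0.633-fold, which did not pass edgeR's quasi-likelihood test after Benjamini-Hochberg adjustment over all rows (adjusted p = 0.288). DESeq2 called Ncoa4 lower (adjusted p = 0.0286), and over 16 alternatives the log2 fold change lay between -0.77 and -0.51. In the alternatives that kept both NICcA libraries its adjusted p ran up to 0.398 (edgeR without wild type replicate 2). The other Ncoa4 row, which shares almost all of its reads, gave -0.65 (SE 0.18).

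Ftl1, the light chain that helps the iron core form inside the ferritin shell, was at 7962, 8805 and 9141 CPM across the wild type libraries, against 7442 and 7121 CPM with NICcA. The groups did not overlap, with NICcA lower, yet the distance between the highest NICcA and the lowest wild type library was smaller than the wild type range. The same held for Ncoa4 and Hmox1. Its log2 fold change was -0.25 (SE 0.15, edgeR adjusted p = 0.466). Fth1, the heavy chain, which oxidises iron for storage, was at 3895, 5268 and 5432 CPM across the wild type libraries, against 4228 and 3499 CPM with NICcA. Here the groups overlapped, because wild type replicate 1 lay below NICcA replicate 2, and the log2 fold change was -0.33 (SE 0.20, edgeR adjusted p = 0.462). The log2 fold change of Fth1 was -0.20 without NICcA replicate 3, -0.48 without NICcA replicate 2 and -0.47 without wild type replicate 1. Together the 2 ferritin genes made up 1.19% to 1.39% of wild type counts, against 1.2% and 1.12% with NICcA. Ferritin genes have processed copies elsewhere in the genome, and the sources used here do not give how the authors' counting treated reads shared with them.

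**Figure D2:**
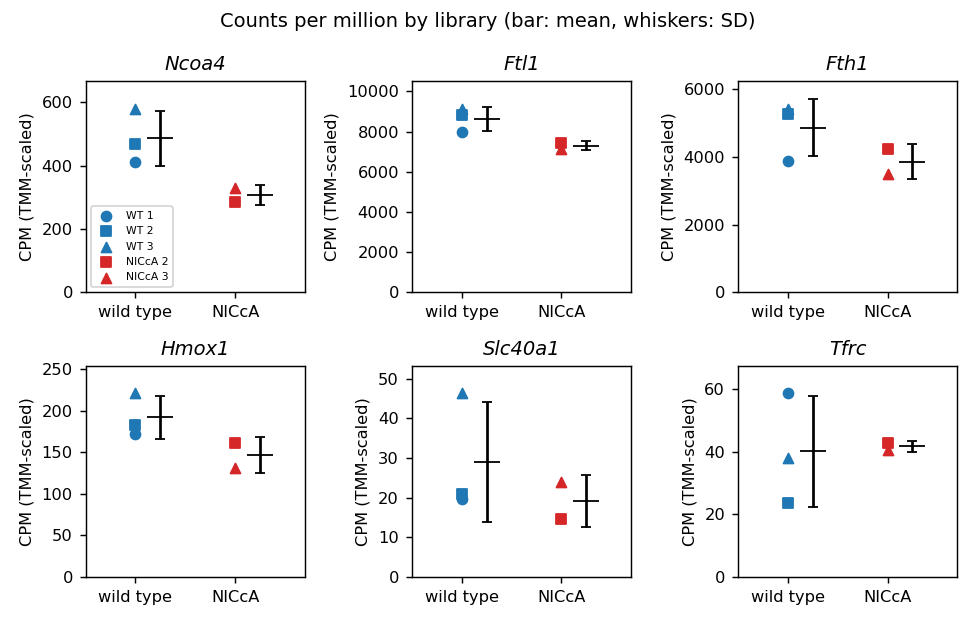
TMM-scaled CPM of 6 genes in each library (blue wild type, red NICcA; horizontal bar, mean; whiskers, SD), each panel with its own axis from 0. Ncoa4, Ftl1 and Hmox1 show no overlap between genotypes, whereas Fth1 and Slc40a1 overlap in 1 of the 2 NICcA libraries and the wild type range of Tfrc encloses both.

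Haem breakdown is represented by Hmox1 and Blvrb. Hmox1, the inducible haem oxygenase that opens the haem ring and frees its iron, was at 172, 183 and 221 CPM across the wild type libraries, against 162 and 131 CPM with NICcA. Both NICcA libraries were below all wild type libraries, with means of 192 ± 25.7 and 146 ± 21.6 CPM. The log2 fold change of -0.39 (SE 0.16) had an unadjusted p of 0.0498 and did not pass adjustment in edgeR (adjusted p = 0.345). Without NICcA replicate 3 the log2 fold change was -0.25, and without NICcA replicate 2 it was -0.55. Blvrb, which encodes biliverdin reductase B, was at 55.5, 75.0 and 82.9 CPM across the wild type libraries, against 91.8 and 61.3 CPM with NICcA. The NICcA libraries lay on either side of wild type replicates 2 and 3, so the log2 fold change of 0.11 (SE 0.23, edgeR adjusted p = 0.843) was smaller than its error, and it became -0.21 without NICcA replicate 2 and -0.04 without wild type replicate 1.

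Slc40a1 encodes ferroportin, the known exporter of iron from cells. It was at 19.6, 20.8 and 46.3 CPM across the wild type libraries, against 14.6 and 23.9 CPM with NICcA. Wild type replicate 3 stood at more than 2 times the level of the other wild type libraries, and NICcA replicate 3 lay above wild type replicates 1 and 2. A log2 fold change of -0.59 (SE 0.44, edgeR adjusted p = 0.534) shrank to -0.07 without wild type replicate 3 and to -0.28 without NICcA replicate 2, and was -0.99 without NICcA replicate 3.

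Iron uptake and divalent metal transport showed spread between libraries and no shared direction. Tfrc, the transferrin receptor, which brings in iron bound to transferrin, was at 58.7, 23.5 and 38.2 CPM across the wild type libraries, against 42.9 and 40.5 CPM with NICcA. The wild type range enclosed both NICcA values, and the log2 fold change was 0.06 (SE 0.35, edgeR adjusted p = 0.95). It was 0.44 without wild type replicate 1 and -0.22 without wild type replicate 2.

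Slc11a1, also called Nramp1, moves divalent metals out of the phagosome. It was at 25.9, 28.9 and 66.5 CPM across the wild type libraries, against 53.4 and 26.1 CPM with NICcA. A single library in each genotype, wild type replicate 3 and NICcA replicate 2, stood well above the rest of its group. The log2 fold change of -0.02 (SE 0.49, edgeR adjusted p = 0.985) turned to 0.54 without wild type replicate 3 and to 0.40 without NICcA replicate 3.

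Slc11a2 encodes DMT1, which passes iron from the endosome to the cytosol. It was at 20.4, 24.8 and 30.9 CPM across the wild type libraries, against 32.5 and 15.8 CPM with NICcA, so the NICcA libraries bracketed the whole wild type range. The log2 fold change was -0.07 (SE 0.33, edgeR adjusted p = 0.93) for the shorter row and 0.02 (SE 0.35) for the longer row that carries the hairpin shown above; the value of the shorter row became 0.09 without wild type replicate 3, or 0.36 when NICcA replicate 3 was left out. These rows share reads, so the counts cannot tell the forms apart.

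Ireb2, which encodes iron regulatory protein 2, was at 31.6, 25.1 and 32.6 CPM across the wild type libraries, against 19.9 and 29.0 CPM with NICcA. NICcA replicate 2 was the lowest library and NICcA replicate 3 lay within the wild type range. The log2 fold change was -0.29 (SE 0.20, edgeR adjusted p = 0.517), at -0.58 without NICcA replicate 3 and -0.04 without NICcA replicate 2.

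Across the 10 genes, 0 passed edgeR's adjusted threshold of 0.05, against a background of 0.03% of 13341 genes tested (4 genes), and 2 had an unadjusted p below 0.05, both lower in NICcA (Ncoa4 and Hmox1), where 14.5% of all genes did in either direction and 6.83% were lower. The count of 2 includes Hmox1 at an edgeR unadjusted p of 0.0498, and it moved with the processing. It was 1 with library totals in place of scaling factors and without wild type replicate 2 or 3. It was 3 with DESeq2 and without wild type replicate 1. After adjustment DESeq2 called 1 of the 10, with 3.95% of all genes called. The median log2 fold change of the 10 genes was -0.27 and 8 were negative, beside a median of 0.0028 and 49.5% negative over all genes tested. The groups did not overlap for 3 of the 10 genes (Ncoa4, Hmox1 and Ftl1), all lower in NICcA, and for 36.8% of all genes in either direction and 18.5% in the lower direction. With library totals in place of scaling factors the median over all genes moved to 0.11, the median of the 10 genes to -0.16, and 6 of them were negative.

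**Figure D3:**
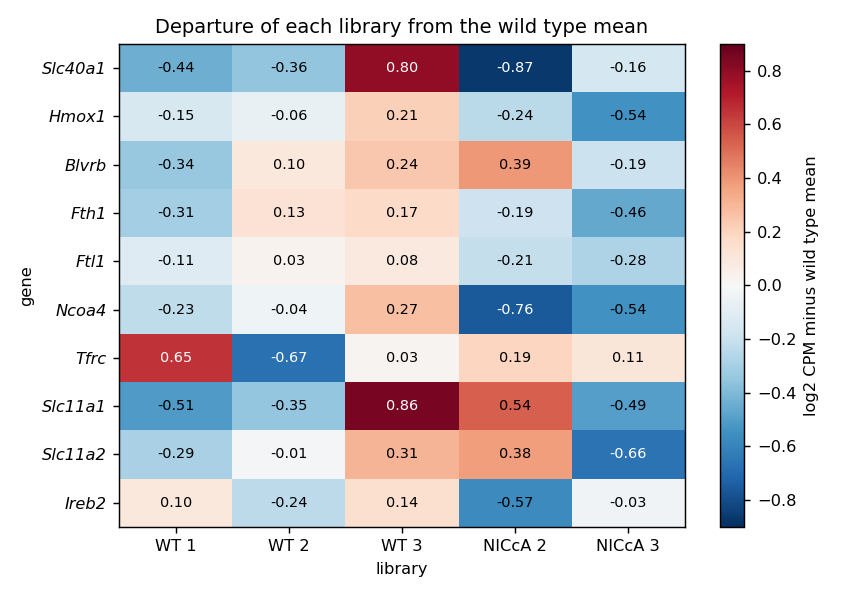
Log2 CPM of each gene (rows) minus its wild type mean, in each library (columns); red is above and blue below that mean. Wild type replicate 3 is above the mean for all 10 genes, and NICcA replicates 2 and 3 are both negative for Slc40a1, Hmox1, Fth1, Ftl1, Ncoa4 and Ireb2.

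The libraries differed within genotypes as well as between them. The median departure of the 10 genes from the wild type mean was -0.26, -0.05 and 0.23 on the log2 CPM scale in wild type replicates 1, 2 and 3, and -0.20 and -0.37 in NICcA replicates 2 and 3. Leaving out wild type replicate 3 gave a median log2 fold change of -0.14 for the 10 genes, and leaving out NICcA replicate 2 gave -0.38.

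Markers of other cell types were measured beside these genes, with no test. The summed level of 6 dendritic cell markers, all detected, was 29.9 to 96.0 CPM in wild type and 230.0 and 133 CPM in NICcA. Ccr7, whose own groups overlapped, made up 166 CPM of the sum in NICcA replicate 2. Flt3, Zbtb46, Cd209a, Xcr1 and Itgae were each higher in both NICcA libraries than in every wild type library. Itgae values were 12.8, 6.02 and 0.698 CPM across the wild type libraries, beside 35.4 and 35.8 CPM with NICcA. For 8 neutrophil markers the sums were 80.1 to 111 CPM and 146 and 134 CPM. Erythroid markers, which would accompany red cell precursors rich in haem enzymes, summed to 0.969 to 1.28 CPM in wild type and 2.53 and 1.54 CPM in NICcA. Fibroblast markers reached 15.8 CPM in wild type replicate 1 and at most 0.455 CPM elsewhere. B and T cell markers summed to at most 2.23 CPM in any library. No listed marker was at 0 in all 5 libraries. The part of these cells in the values of the iron genes was not tested.

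Ratios of counts within a library need no scaling factor, and 3 were compared with a two-sided exact permutation test over the 10 ways to choose 2 of 5 libraries, whose smallest possible p is 0.1, so none could reach 0.05. The ratio of Hmox1 to its constitutive relative Hmox2 was 2.52, 2.57 and 3.06 in wild type and 2.16 and 2.10 in NICcA. Both NICcA libraries were below the wild type range, a difference of -0.34 on the log2 scale (exact p = 0.1, 0.3 adjusted over the 3 ratios). Slc40a1 to Tfrc, export against uptake, was 0.335, 0.884 and 1.21 in wild type, against 0.339 and 0.590 with NICcA, so the groups overlapped (log2 difference -0.67, exact p = 0.5, adjusted 0.6). That difference was -1.21 without wild type replicate 1, -0.28 without wild type replicate 3, -0.27 without NICcA replicate 2 and -1.07 without NICcA replicate 3. The ratio of Fth1 to Ftl1 was 0.489, 0.598 and 0.594 in wild type and 0.568 and 0.491 in NICcA, a difference of -0.08 on the log2 scale (exact p = 0.6, adjusted 0.6).

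The rest of the pathway was taken from a list of 71 other iron and haem genes, of which 64 passed the low-count filter. Of those, 0 passed edgeR's adjustment in either direction; 5 had an unadjusted p below 0.05, all lower in NICcA, where 6.83% of all genes did so. DESeq2 called 3, all lower, where 1.9% of all genes were called lower. The median log2 fold change over the 64 was -0.04. The groups did not overlap for 13 of the 64 with NICcA lower and for 7 with NICcA higher. Of all genes, 36.8% did not overlap in either direction and 18.5% in the lower direction. The genes named below were picked for a small p, which favours groups that do not overlap.

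Iron uptake genes named by the rule were Trf and Steap3. Trf, which encodes transferrin, the iron carrier of plasma, was at 328, 303 and 341 CPM across the wild type libraries, against 189 and 246 CPM with NICcA. Both NICcA libraries were lower than all wild type libraries (log2 fold change -0.58, SE 0.15, edgeR adjusted p = 0.28). DESeq2 gave Trf an adjusted p of 0.0197. In the alternatives that kept both NICcA libraries it ran up to 0.398 (edgeR without wild type replicate 2). Steap3, a ferrireductase that reduces iron in the endosome, was at 20.3, 41.5 and 30.3 CPM across the wild type libraries, against 15.7 and 15.96 CPM with NICcA. It too did not overlap (log2 fold change -0.95, SE 0.29, edgeR adjusted p = 0.299). DESeq2 gave Steap3 an adjusted p of 0.0498. In the alternatives that kept both NICcA libraries it ran up to 0.404 (edgeR without wild type replicate 3). Of the 10 tested genes of this group, 0 passed edgeR's adjustment and 6 had negative values.

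Haem transport was led by Mfsd7b, an older symbol of Flvcr1, which encodes a haem exporter. It was at 80.7, 97.4 and 115 CPM across the wild type libraries, against 57.5 and 57.4 CPM with NICcA, again with no overlap. Its log2 fold change was -0.77 (SE 0.16, edgeR adjusted p = 0.275). DESeq2 called it lower (adjusted p = 0.00578). In the alternatives that kept both NICcA libraries its adjusted p ran up to 0.398 (edgeR without wild type replicate 2). Lrp1, a large endocytic receptor that takes up haem bound to haemopexin, was at 541, 662 and 854 CPM against 438 and 530.1 CPM (log2 fold change -0.50, SE 0.22, edgeR adjusted p = 0.358), and its log2 fold change was -0.31 without wild type replicate 3. Of 9 tested genes of haem and haemoglobin uptake and transport, 7 had negative values and 0 passed edgeR's adjustment.

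**Figure D4:**
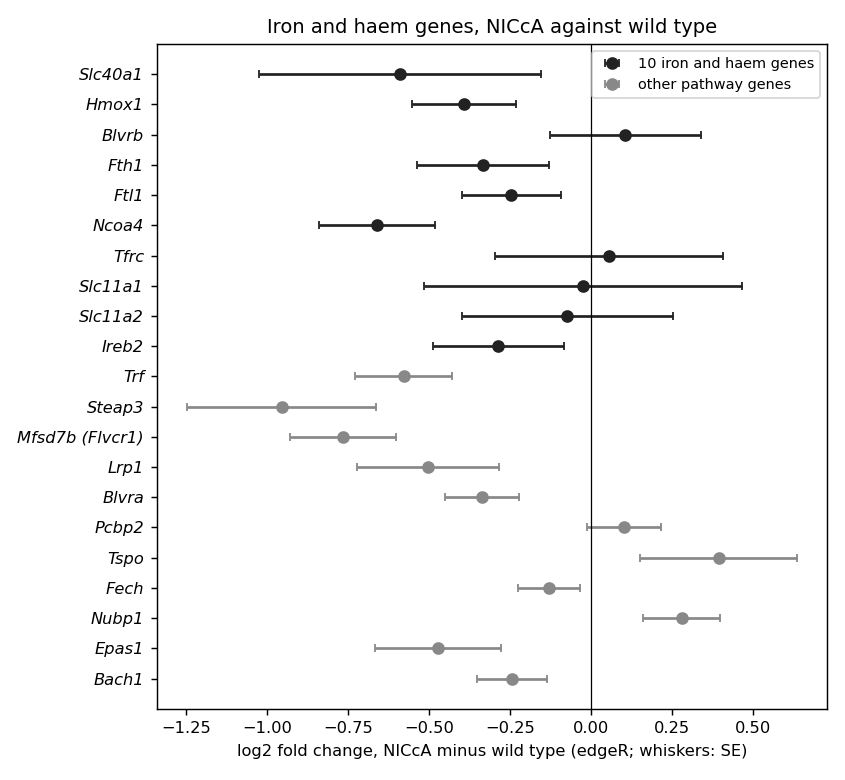
Log2 fold change, NICcA minus wild type, from edgeR (points; whiskers, SE) for the 10 iron and haem genes (black) and 11 other pathway genes named by the rule (grey). Ncoa4 at -0.66 is the lowest of the 10, Steap3 at -0.95 and Mfsd7b at -0.77 are the lowest of the others, and none passes edgeR's adjustment.

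Genes of haem synthesis and of the mitochondrial use of iron had medians near 0. Of 11 tested genes of haem synthesis, 8 had positive and 3 negative values, with a median log2 fold change of 0.09. Fech, which inserts iron into the porphyrin ring, was at 26.5, 26.8 and 26.7 CPM across the wild type libraries, against 24.4 and 24.3 CPM with NICcA (log2 fold change -0.13, SE 0.10, edgeR adjusted p = 0.531). Tspo, a mitochondrial outer membrane protein, stood at 292 and 173 CPM with NICcA (replicates 2 and 3), beside 150.3 to 199.5 CPM in wild type (log2 fold change 0.40, SE 0.24, edgeR adjusted p = 0.46, and -0.03 without NICcA replicate 2 or 0.73 without NICcA replicate 3).

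Of 17 genes of mitochondrial iron and iron-sulfur clusters, 10 had positive and 7 negative values, with a median of 0.02. Nubp1, an assembly factor of cytosolic iron-sulfur proteins, had a log2 fold change of 0.28 (SE 0.12, edgeR adjusted p = 0.354), and both its NICcA libraries were above all wild type libraries.

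Among partners of haem breakdown and storage, Blvra, the gene of biliverdin reductase A, was at 50.9, 60.9 and 57.4 CPM across the wild type libraries, against 45.8 and 43.6 CPM with NICcA, with no overlap (log2 fold change -0.34, SE 0.11, edgeR adjusted p = 0.321). Pcbp2, a chaperone that hands iron to ferritin, had a log2 fold change of 0.10 (SE 0.12, edgeR adjusted p = 0.681), which ranged from 0.03 to 0.17 with 1 NICcA or wild type library left out, lowest without NICcA replicate 3. Of the 12 tested regulators, 8 had negative values and 0 passed. Bach1, the haem-sensing repressor of Hmox1 and the ferritin genes, was at 182, 183 and 197 CPM across the wild type libraries, against 151 and 166 CPM with NICcA (log2 fold change -0.24, SE 0.11, edgeR adjusted p = 0.362). Both NICcA libraries were below all wild type libraries, as for 18.5% of all genes. A link to the level of Hmox1 was not tested. Epas1, which encodes the hypoxia factor HIF-2 alpha, was at 3.99, 4.15 and 4.81 CPM against 2.78 and 3.44 CPM (log2 fold change -0.47, SE 0.20, edgeR adjusted p = 0.347). It is 1 of 2 genes of the 71 with a matching hairpin in its 5′ untranslated region, in the form with 1 unpaired base. The other, with the fully paired form, was Alas2, the erythroid enzyme of haem synthesis, at 0.288 ± 0.0760 and 0.410 ± 0.00849 CPM.

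Likeness between patterns was measured as the root mean square difference of log2 CPM, centred per gene, over the 5 libraries. Among the 10 genes, Hmox1 and Fth1 were closest to each other (0.119), and Ftl1 and Ncoa4 were each nearest to Hmox1 (0.127 and 0.211). Tfrc was the most distant, with Ireb2 nearest at 0.436. Over 9394 other genes at a mean of at least 5 CPM, those nearest to Hmox1 were Tmem106a, Coq10b and Slc23a2 (0.0356, 0.0376 and 0.0389), and those nearest to Slc40a1 were Abca9, Cbr2 and Tanc2 (0.1, 0.123 and 0.175).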

How the data were processed

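RNA of 5 macrophage libraries (3 wild type, 2 NICcA) was grouped by labelled genotype. The authors deposited raw read counts and RPKM for 27457 RefSeq transcript rows, and RPKM for 64528 rows in a second table, per the file headers. Bowtie 0.12.2 and mouse build mm8 are named, without a role, per the submitters' processing notes; which program counted reads, with what strand setting and filters, is not given in the sources used here. Sequences come from GENCODE M21, on another build, so coordinates are those of GRCm38 and not of the authors' alignment.

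Counts of 18267 rows (13341 genes) past filterByExpr entered edgeR 4.0.16 (R 4.3.3; TMM, glmQLFit, glmQLFTest, genotype only), with Benjamini-Hochberg adjustment over all rows. The SE is the log2 fold change over the square root of F. In 1 simulated data set of 13165 genes, edgeR recovered 56% of 2-fold and 94% of 4-fold changes and called 27 unchanged genes. Alternatives used other scaling or filters, DESeq2 1.42.0, limma 3.58.1 (voom, and log2(RPKM + 1) for rows of at least 1 RPKM in 2 libraries), a block for replicate number, and leaving out each library. Of 47 rows whose symbol had become a date, 46 were renamed by accession; 2 listed genes were found under older symbols.

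Named genes are the 10 members, the 2 genes with the smallest p in each group of other iron and haem genes where none passed, and the 3 genes nearest in pattern to Slc40a1 and to Hmox1; for 1 further gene under this rule the values are not reported here. The members and lists were chosen with earlier results of these data known.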

Additional observations from a re-analysis of the deposited data

How the results depend on the processing

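Leaving out 1 library in turn, edgeR called 0 to 44 genes in place of 4; the count was 0 without wild type replicate 2 or NICcA replicate 2 and 44 without NICcA replicate 3. It was 11 with no low-count filter, 527 with DESeq2, 8 with legacy = FALSE, 2 with limma-voom and 2 with limma on log2(RPKM + 1). DESeq2 called 1 of the 10 members and 3 of the other iron and haem genes; every other alternative run called 0 of both. The members whose groups did not overlap numbered 3 to 7 with 1 library left out (a check chosen after seeing the data). They numbered 5, 4 and 3 without wild type replicates 1, 2 and 3 in turn, beside 50.3%, 53.7% and 43.3% of all genes. They numbered 5 and 7 without NICcA replicates 2 and 3 in turn, beside 55.6% and 65.5% of all genes. Leaving a library out can only keep or raise such a count. The cause of these changes was not tested.

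With the replicate number as a block edgeR called 0 genes, and the log2 fold change of Blvrb was -0.0708. Fitting a term for each number to 5 libraries leaves almost no freedom to estimate spread. Wild type replicate 1, with no NICcA library of its number, adds nothing to the genotype difference in that fit. The count of 0 is therefore no check of the main result. The labels do not say that a number pairs libraries. Deviations from the group means correlated at 0.211 for the libraries numbered 2 and 0.116 for those numbered 3. With 2 NICcA libraries their deviations mirror each other. Wild type replicate 2 thus correlated at -0.211 with NICcA replicate 3, and wild type replicate 3 at -0.116 with NICcA replicate 2. These values cannot settle whether a number pairs libraries. Directions also turned elsewhere. With 1 library left out, Blvrb ranged from -0.21 to 0.37 (-0.04 without wild type replicate 1), Tfrc from -0.22 to 0.44, Slc11a1 from -0.63 to 0.54 (0.40 without NICcA replicate 3), Slc11a2 from -0.68 to 0.36 (0.09 without wild type replicate 3), Tspo from -0.0324 to 0.73, and the log2 ratio difference of Fth1 to Ftl1 from -0.184 to 0.0254. Slc11a1 was at 0.0841 and Slc11a2 at 0.0317 with no scaling factors, and Slc11a1 at 0.0196 with limma-voom and 0.13 with limma on log2(RPKM + 1). Of the 21 named genes with a fold change tested under the alternatives, 16 kept their direction in every alternative run for them; Epas1 was below the RPKM minimum and has no value with limma on log2(RPKM + 1). Only 2 NICcA libraries limit the precision of every comparison.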
